A study of Mus musculus with 6 samples.

Results

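The EGF receptor family and its ligands were described in TCMK1 cells, a mouse renal tubular epithelial line, all of them treated with angiotensin II (Ang II). The members were 10 genes picked by name: the receptors Egfr, Erbb2 and Erbb3, and the ligands Areg, Ereg, Hbegf, Btc, Tgfa, Egf and Nrg1. They filled 11 of the 28789 rows of the deposited table, because Nrg1 was listed under 2 gene identifiers. Poly(A) RNA was sequenced from 3 samples labelled as YOD1 overexpression with Ang II and 3 labelled as control with Ang II. YOD1 is a deubiquitinase of the OTU family, and the series sought pathways that it regulates under Ang II. The means of overexpression and the vector of the controls, if any, are not stated in the labels. Every group received Ang II, so an effect of Ang II itself cannot be read from these samples.

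Members of the ErbB family are receptor tyrosine kinases that pair after a ligand binds and then signal through RAS and ERK and through PI3-kinase. EGFR binds EGF, TGF-alpha, amphiregulin, HB-EGF, betacellulin and epiregulin, ERBB3 binds neuregulins but has little kinase activity of its own, and ERBB2 has no known ligand and acts as the preferred partner of the others. The ligands are made as membrane-bound precursors that proteases such as ADAM17 and ADAM10 release. In kidney tubules this system takes part in repair after injury, and Ang II is known to activate EGFR indirectly, through the release of TGF-alpha or HB-EGF.

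Promoter sequence is shown for the members whose YOD1 and control libraries did not overlap and for which the RefSeq table gave an entry (GRCm38.p6). The table held 6 of the 10 members, and Erbb3 and Nrg1 were not among them. Each sequence is the 250 bases before the annotated start, and capitals mark matches, on either strand, to the STAT motif TTCNNNGAA, the AP-1 motif TGANTCA, the cAMP response element TGACGTCA, the GC box GGGCGG, the CCAAT box CCAAT and the TATA box TATAAA.
Areg, chr5:91139349-91139598, plus strand: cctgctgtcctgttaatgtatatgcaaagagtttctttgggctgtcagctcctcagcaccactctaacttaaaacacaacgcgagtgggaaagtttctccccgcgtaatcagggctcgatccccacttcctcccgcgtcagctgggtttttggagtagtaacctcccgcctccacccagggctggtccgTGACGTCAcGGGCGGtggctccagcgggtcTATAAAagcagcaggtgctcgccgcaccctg
Erbb2, chr11:98412234-98412483, plus strand: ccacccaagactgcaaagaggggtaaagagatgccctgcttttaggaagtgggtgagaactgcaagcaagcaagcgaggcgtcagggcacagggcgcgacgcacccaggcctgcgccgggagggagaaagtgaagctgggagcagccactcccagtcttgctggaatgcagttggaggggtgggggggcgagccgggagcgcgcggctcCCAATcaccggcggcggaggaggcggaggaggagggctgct
Tgfa, chr6:86194972-86195221, plus strand: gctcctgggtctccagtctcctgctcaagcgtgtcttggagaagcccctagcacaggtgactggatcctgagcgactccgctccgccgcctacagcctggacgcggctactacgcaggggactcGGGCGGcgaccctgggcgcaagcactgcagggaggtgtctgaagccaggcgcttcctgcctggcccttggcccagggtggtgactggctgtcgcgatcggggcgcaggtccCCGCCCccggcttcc

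The Areg promoter held a full cAMP response element 61 bases before the start, a GC box and a TATA box. Over 32851 promoters of the same length, 1.55% held that response element, 32.7% a GC box and 12.4% a TATA box. The Erbb2 window held a CCAAT box, as did 33.8% of promoters, and the Tgfa window held 2 GC boxes and no TATA box. None of the 3 windows held the STAT motif (7.02% of promoters) or the AP-1 motif (6.75%). Their GC content was 57.2% for Areg, 66.0% for Erbb2 and 69.2% for Tgfa. These matches describe the letters of the windows and were not tested against the expression values.

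The deposited values were FPKM, fragments scaled to transcript length and to the mapped fragments of the library, so the read depth is unknown. Total FPKM ran from 326137 to 352209 in the YOD1 libraries and from 314172 to 320924 in the controls. Yod1 stood at 1.73, 7.56 and 1.86 FPKM in the YOD1 libraries, against 0.842, 0.757 and 0.684 FPKM in the controls. Whether those values count an introduced sequence is not known. Of 10 epithelial tubule markers 9 averaged at least 1 FPKM, Cdh16, Pax8 and Epcam among them, while of 7 mature tubule markers 5 were in the table and 1, Lrp2, reached that level. Endothelial markers summed to 1.24 to 2.10 FPKM in the YOD1 libraries and 0.674 to 1.33 FPKM in the controls. Fibroblast markers summed to 5.87 to 12.5 FPKM with YOD1 and 11.4 to 13.9 FPKM in controls, and leukocyte markers to 12.6 to 15.6 and 12.9 to 23.0 FPKM, nearly all of it Cd68. YOD1 library 3 stood apart on the first principal component (score -36.4, against -10.7 and -8.64 in the other YOD1 libraries and 11.7 to 24.7 in the controls). The 18S-related transcript Rn18s-rs5 took 2.17% to 3.90% of the FPKM sum in YOD1 libraries and 0.421% to 0.733% in controls, and its part in the values below was not tested. Nothing in the labels says that replicates came from separate cultures, so p-values cover only the spread among these 6 samples, which may be technical.

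Groups were compared with limma on log2(FPKM + 1) over the 11483 genes that reached 1 FPKM in 3 or more libraries, and a gene was called at a Benjamini-Hochberg adjusted p under 0.05. Of the 10 members 7 reached that level, and none of these 7 was called in limma (0 of 7, where 0.479% of all tested genes were called, 0.444% higher and 0.0348% lower with YOD1). At an unadjusted p under 0.05 there were 5, with Erbb2, Erbb3 and Tgfa lower and Areg and Nrg1 higher with YOD1, beside 20.9% of all tested genes (13% lower and 7.87% higher). The same 5 had YOD1 and control libraries that did not overlap, beside 28.9% of all tested genes (19.1% lower and 9.77% higher with YOD1). Areg passed the level filter through its 3 YOD1 libraries and control 3, so these counts over tested members are not support for a change. Yod1 itself passed the filter only through its 3 YOD1 libraries and was not called either (log2 fold change 1.21, limma adjusted p = 0.141). In the authors' deposited table, Nrg1 (q = 0.00564) and Erbb3 (q = 0.026) had q under 0.05, as did 1.97% of all listed genes. Neither carried the authors' mark of significance, which also required an absolute log2 ratio of at least 1 and went to 0.993% of genes.

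By level, the receptors Erbb2 and Erbb3 led the family. The order in YOD1 libraries was Erbb2, Erbb3, Egfr, Tgfa, Hbegf, Nrg1, Areg, Egf, Btc and Ereg, and in control libraries Tgfa stood before Egfr with the rest in the same order. Erbb2 and Erbb3 were each clear of their neighbours in both groups. Egfr overlapped with Tgfa in both groups, Hbegf overlapped with the gene just above it (Tgfa with YOD1, Egfr in controls), and Nrg1 overlapped with Areg, so the place of these genes within their neighbours is not resolved by 3 libraries a group. In the controls Egf and Btc overlapped as well.

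Erbb2 (ENSMUSG00000062312), the receptor with no ligand of its own, had the highest level of the family. It stood at 21.1, 21.5 and 25.4 FPKM in the YOD1 libraries, against 30.8, 43.5 and 28.4 FPKM in the controls. All 3 YOD1 libraries lay below all 3 controls, and control 2 lay far above the other controls. The means were 22.7 ± 2.35 FPKM with YOD1 and 34.2 ± 8.13 FPKM in controls (SD, n = 3 each), a ratio of 0.662. On the log2 scale the fold change was -0.55 with an SE of 0.17 and a 95% interval from -0.94 to -0.17 that is not adjusted for the number of genes (limma adjusted p = 0.141). Without control 2 it was -0.37 (limma adjusted p = 0.39). In bulk RNA, fewer cells that express a gene and less of its RNA per cell cannot be told apart, which holds for every value here.

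Erbb3 (ENSMUSG00000018166), the neuregulin receptor, had the smallest p of the family, at rank 188 of 11483 genes. It stood at 9.67, 10.9 and 8.06 FPKM in the YOD1 libraries, against 15.8, 16.3 and 14.4 FPKM in the controls. The groups were far apart next to their spread, with means of 9.54 ± 1.42 FPKM with YOD1 and 15.5 ± 1.00 FPKM in controls (SD, n = 3 each) and a ratio of 0.616. The log2 fold change was -0.65 with an SE of 0.15 and a 95% interval from -0.98 to -0.32 (limma adjusted p = 0.0893), so it missed the threshold over all genes. Only 1 transcript was listed for Erbb3, and its exons overlapped no other gene in GENCODE M21.

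Egfr (ENSMUSG00000020122), the receptor of most of these ligands, had groups that overlapped. It stood at 6.31, 7.91 and 4.27 FPKM in the YOD1 libraries, against 5.63, 5.11 and 6.30 FPKM in the controls. The YOD1 libraries held both the highest and the lowest value of the 6, in library 2, which also had the highest Yod1, and in library 3. Among the YOD1 libraries, library 2 was also the highest for Erbb3, Tgfa, Hbegf, Areg and Nrg1, though not for Erbb2. A relation of these values to the level of Yod1 was not tested. The log2 fold change of Egfr was 0.07 with a 95% interval from -0.38 to 0.53 (limma adjusted p = 0.854). Leaving out YOD1 library 2 made it -0.10, leaving out YOD1 library 3 made it 0.28, and it was 0.35 after correction for transcript length and GC content (limma adjusted p = 0.79, 0.345 and 0.147), so its direction is not set by these data.

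**Figure D1:**
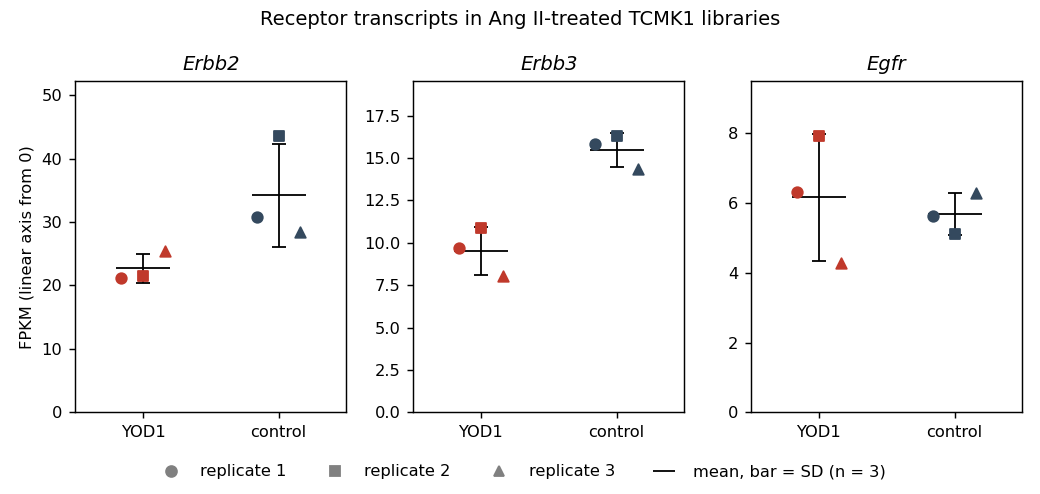
FPKM of the 3 receptors in each library (vertical axis, linear from 0, scaled per panel), with YOD1 overexpression left of control, 1 marker shape per replicate number, and the mean with SD (n = 3). Erbb2 and Erbb3 in the YOD1 libraries lie at 21.1 to 25.4 and 8.06 to 10.9 FPKM, below every control, while Egfr overlaps.

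Summed over the 3 receptors, a library held 37.1, 40.3 and 37.7 FPKM with YOD1, against 52.2, 64.9 and 49.1 FPKM in controls. The groups did not overlap. Erbb2 and Erbb3 alone summed to 30.8, 32.4 and 33.4 FPKM with YOD1 and 46.6, 59.8 and 42.8 FPKM in controls. Each of these genes already lay below every control in all YOD1 libraries, so their sum could not overlap and adds no separate result. The make-up overlapped: Erbb2 took 53.4% to 67.3% of the receptor sum with YOD1 and 57.9% to 67.1% in controls, and Egfr 11.3% to 19.6% and 7.87% to 12.8%. Values of Erbb2 were 1.98 to 3.15 times those of Erbb3 in YOD1 libraries and 1.95 to 2.67 times in controls.

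Tgfa (ENSMUSG00000029999), a ligand of EGFR, had the highest mean of the ligands. It stood at 4.45, 5.27 and 4.86 FPKM in the YOD1 libraries, against 6.30, 7.78 and 6.25 FPKM in the controls. Every YOD1 library lay below every control, by a smaller margin than for Erbb3. The means were 4.86 ± 0.408 FPKM with YOD1 and 6.77 ± 0.868 FPKM in controls (SD, n = 3 each), with a log2 fold change of -0.40, an SE of 0.15 and a 95% interval from -0.75 to -0.06 (limma adjusted p = 0.192). An antisense gene, Gm43917, overlaps 118 of its 6490 exonic bases, and the library strand is not stated.

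Hbegf (ENSMUSG00000024486), the heparin-binding ligand of EGFR, was nearly level between the groups. It stood at 4.57, 4.76 and 4.25 FPKM in the YOD1 libraries, against 5.02, 4.40 and 5.62 FPKM in the controls. The groups overlapped, with control 2 below 2 of the YOD1 libraries. This gave a log2 fold change of -0.12 with a 95% interval from -0.46 to 0.22 (limma adjusted p = 0.665).

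Areg (ENSMUSG00000029378), which encodes amphiregulin, a low-affinity ligand of EGFR, had the largest ratio between groups among the 7 tested members. It stood at 1.62, 2.14 and 1.58 FPKM in the YOD1 libraries, against 0.691, 0.490 and 1.32 FPKM in the controls. All YOD1 libraries lay above the controls, though control 3 came close to the lowest of them. The means were 1.78 ± 0.312 FPKM with YOD1 and 0.835 ± 0.435 FPKM in controls (SD, n = 3 each), a ratio of 2.13. Its log2 fold change was 0.62 with an SE of 0.19 and a 95% interval from 0.19 to 1.05 (limma adjusted p = 0.14). The added 1 FPKM shrinks the fold of so low a gene: with 0.1 FPKM added it was 1.09 (limma adjusted p = 0.164). The authors' deposited table gives Areg q = 0.17.

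Nrg1 encodes neuregulin 1, a ligand of ERBB3. Its main record (ENSMUSG00000062991, 19 transcripts) stood at 2.20, 2.56 and 1.63 FPKM in the YOD1 libraries, against 1.24, 1.12 and 1.45 FPKM in the controls. The YOD1 libraries lay above the controls, and YOD1 library 3 was the nearest to them. The means were 2.13 ± 0.467 FPKM with YOD1 and 1.27 ± 0.167 FPKM in controls (SD, n = 3 each), a ratio of 1.68. The log2 fold change was 0.46 with an SE of 0.16 and a 95% interval from 0.09 to 0.82 (limma adjusted p = 0.177), and it was 0.67 after correction for length and GC content (limma adjusted p = 0.0638) and 0.69 with 0.1 FPKM added (0.195). The other record (ENSMUSG00000118541, 1 transcript) was listed at 0 in 5 libraries and at 0.158 FPKM in control 1. Reads of Nrg1 may be split between the records, and an antisense gene, Gm26578, overlaps 482 of its 10351 exonic bases.

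The other 3 ligands lay below the level needed for the test. Egf, the founding ligand, which the distal tubule makes in vivo, stood at 0.238, 0.275 and 0.191 FPKM in the YOD1 libraries, against 0.253, 0.117 and 0.349 FPKM in the controls. Btc, betacellulin, stood at 0.0772, 0.117 and 0.0991 FPKM with YOD1, against 0.0911, 0.109 and 0.206 FPKM in controls. Both overlapped between the groups. Ereg, epiregulin, was listed at 0 in 4 libraries, at 0.0524 FPKM in YOD1 library 3 and at 0.0209 FPKM in control 2. Antisense genes overlap exons of Egf and Ereg, and without strand the reads of both cannot be told apart.

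**Figure D2:**
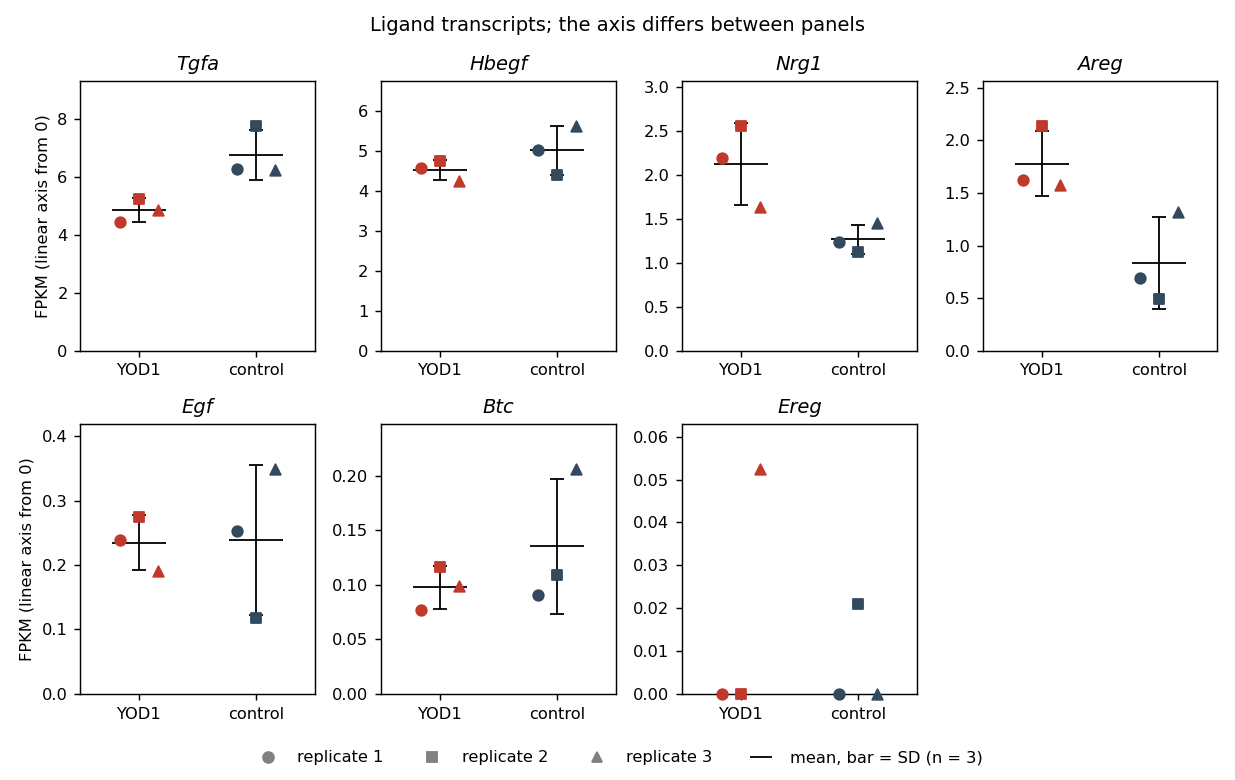
FPKM of the 7 ligands in each library (vertical axis, linear from 0, with a scale of its own per panel), YOD1 left of control, 1 marker shape per replicate number, and the mean with SD (n = 3) where no value is 0. Tgfa lies lower and Nrg1 (main record) and Areg higher in all 3 YOD1 libraries, and the panels of Hbegf, Egf, Btc and Ereg overlap.

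The sum over all ligands was nearly level, at 13.2, 15.1 and 12.7 FPKM in YOD1 libraries and 13.7, 14.0 and 15.2 FPKM in controls. Within it, the share of Tgfa and the joint share of Areg and Nrg1 did not overlap between the groups, while that of Hbegf did. Areg and Nrg1 each already lay above every control in all YOD1 libraries, and Tgfa below every control. The sum was nearly level and the shares depend on each other, so neither the joint share nor that of Tgfa adds a separate result. Areg and Nrg1 together took 29.1%, 31.1% and 25.3% of it with YOD1, against 15.2%, 11.5% and 18.2% in controls. Tgfa took 33.8%, 34.9% and 38.4% with YOD1, against 45.8%, 55.4% and 41.1% in controls, and Hbegf took 31.5% to 34.7% and 31.4% to 37.0%. These sums and shares are descriptions of the 6 libraries, with no test.

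Median fold changes over all tested genes were lower in bins of longer transcripts, and most members have long transcripts. Over 10 bins of transcript length with like numbers of genes, the bin median on the log2 scale was 0.08 for Areg (1215 bp), -0.07 for Hbegf (2890 bp), -0.20 for Tgfa (4527 bp), -0.23 for Erbb2, Nrg1 and Erbb3 (5012, 5415 and 6016 bp) and -0.30 for Egfr (10208 bp). The difference of a member's log2 fold change from its bin median was -0.42 for Erbb3, -0.32 for Erbb2 and -0.21 for Tgfa, while it was 0.69 for Nrg1, 0.54 for Areg and 0.37 for Egfr. With length and GC trends removed from each library the log2 fold changes were -0.52 for Erbb3, -0.46 for Erbb2 and -0.32 for Tgfa (limma adjusted p = 0.0795, 0.1 and 0.172) and 0.48 for Areg (limma adjusted p = 0.159). No member was called in that setting either (0 in limma, where 14 genes were called higher and 6 lower).

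**Figure D3:**
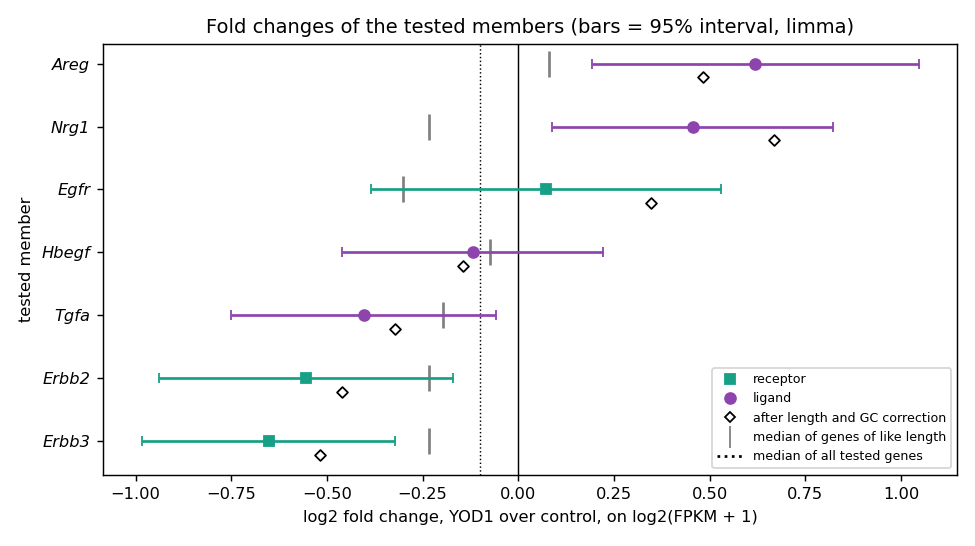
Log2 fold change of YOD1 over control on the log2(FPKM + 1) scale (horizontal axis) for the 7 tested members (vertical axis), with limma's 95% interval, the value after length and GC correction (diamonds), the median of genes of like length (grey bars) and the median of all tested genes, -0.10 (dotted line). Erbb3, Erbb2, Tgfa and, by a small margin, Hbegf lie below both medians, and Nrg1, Areg and Egfr above them. No member passed an adjusted p of 0.05.

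Over the 6 libraries, log2 values of Erbb2 and Tgfa had a Pearson correlation of 0.93 and those of Areg and Nrg1 of 0.91, while Erbb2 and Areg had -0.92. These 6 points share the YOD1 and control grouping, and the values are descriptions. The genes most like Erbb2 were Slc27a4, a fatty acid transport protein gene (r = 0.997), the autophagy receptor gene Optn (0.996) and Fignl2 (0.996). Those most like Tgfa were Polr2a, the largest subunit of RNA polymerase II (r = 0.996), the sorting nexin gene Snx33 (0.995) and the DNA methyltransferase gene Dnmt1 (0.994). These genes were picked as the highest correlations among all tested genes over only 6 libraries. High values follow from that choice and are not support for a link between the genes.

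The remaining ErbB genes were barely present. Erbb4, the other neuregulin receptor, stood at 0.0953 to 0.123 FPKM with YOD1 and 0.106 to 0.130 FPKM in controls. Nrg2, Nrg3, Nrg4 and Epgn had values from 0 to 0.0987 FPKM with YOD1 and from 0.0318 to 0.225 FPKM in controls, and none of the 5 genes of this list reached the level for the test.

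Genes of ligand release were the proteases that cut the precursors, their helpers and Timp3, an inhibitor of such proteases. They gave 15 tested of 17, with 0 called in limma and 4 at an unadjusted p under 0.05 (1 higher and 3 lower, beside 20.9% of all tested genes). Fold changes were below 1 in 12 of 15, beside 63.6% of all tested genes, and the median log2 fold change was -0.23 against -0.10 over all tested genes. With length and GC trends removed this median was -0.10 (all genes -0.09), and with median-ratio scaling -0.14 (all genes -0.02). It was -0.15 with no filter (all genes -0.01) and with one at 5 FPKM (all genes -0.07). Without YOD1 library 2 it was -0.35 (all genes -0.12). Cd9, a tetraspanin that binds membrane-bound HB-EGF, stood at 55.1, 52.3 and 46.1 FPKM with YOD1, against 88.1, 71.8 and 71.3 FPKM in controls (log2 fold change -0.58, limma adjusted p = 0.0956). It was the 1 gene of the pathway lists called after length and GC correction (-0.67, limma adjusted p = 0.0467). Adam8, a metalloprotease, stood at 14.7, 14.9 and 17.3 FPKM with YOD1, against 7.53, 8.35 and 15.2 FPKM in controls, where control 3 lies within the range of the YOD1 libraries (0.61, limma adjusted p = 0.188). Without control 3 it was called (0.89, limma adjusted p = 0.033). For Rhbdl2, a rhomboid protease, and Adam10 the log2 fold changes were -0.51 and -0.45 (limma adjusted p = 0.203 and 0.285). Adam17, the main sheddase of TGF-alpha and amphiregulin and named here for that role after its values were seen, averaged 2.59 ± 0.987 FPKM with YOD1 and 3.63 ± 0.554 FPKM in controls (SD, n = 3 each), and its groups overlapped (fold change of -0.40 on the log2 scale, limma adjusted p = 0.304).

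Adaptors and signal arms downstream of the receptors gave 25 tested of 27. None was called in limma, 8 were lower and 0 higher at an unadjusted p under 0.05 (beside 13% and 7.87% of all tested genes), and in 23 of 25 the log2 fold change was negative (beside 63.6%). Its median was -0.24, with -0.10 for all tested genes. Sos1, which loads RAS with GTP, stood at 1.66, 2.07 and 0.977 FPKM with YOD1, against 3.06, 3.03 and 3.05 FPKM in controls (log2 fold change -0.68, limma adjusted p = 0.117). Gab1, a docking protein, stood at 5.20, 5.59 and 4.45 FPKM with YOD1, against 7.57, 7.36 and 7.38 FPKM in controls (-0.48, limma adjusted p = 0.14). In both genes every YOD1 library lay below every control, and YOD1 library 3 was the lowest. For Ptpn11, the phosphatase SHP2, the log2 fold change was -0.47 (limma adjusted p = 0.205). For the whole list the median was -0.17 after length and GC correction, against -0.09 over all genes in that setting. It was -0.15 with median-ratio scaling (all genes -0.02) and with a filter at 5 FPKM (all genes -0.07). Without YOD1 library 3 it was -0.19 (all genes -0.05).

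Inhibitors, ubiquitin ligases and trafficking genes of the receptors gave 24 tested of 25, with 0 called in limma, and 2 higher and 4 lower at an unadjusted p under 0.05 (beside 7.87% and 13% of all tested genes). Its median was -0.18, with -0.10 for all tested genes. With length and GC trends removed it was -0.09, as over all genes in that setting. It was -0.10 with median-ratio scaling (all genes -0.02) and -0.09 with a filter at 5 FPKM (all genes -0.07). Without YOD1 library 3 it was -0.08 (all genes -0.05), and without YOD1 library 2 -0.31 (all genes -0.12). Rnf126, a ubiquitin ligase of EGFR sorting, averaged 42.7 ± 10.4 FPKM with YOD1 and 26.6 ± 6.13 FPKM in controls (SD, n = 3 each), with overlapping groups (log2 fold change 0.66, limma adjusted p = 0.146). Cd2ap, an adaptor of receptor uptake, averaged 1.60 ± 0.923 and 2.87 ± 0.293 FPKM in those groups (-0.63, limma adjusted p = 0.193), and Cbl, the ligase that tags active EGFR, 2.42 ± 1.14 and 3.87 ± 0.484 FPKM (-0.56, limma adjusted p = 0.224). Their groups overlapped, with YOD1 library 3 lowest. Usp8, a deubiquitinase that acts on EGFR in endosomes, stood at -0.46 on the log2 fold scale (limma adjusted p = 0.238).

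**Figure D4:**
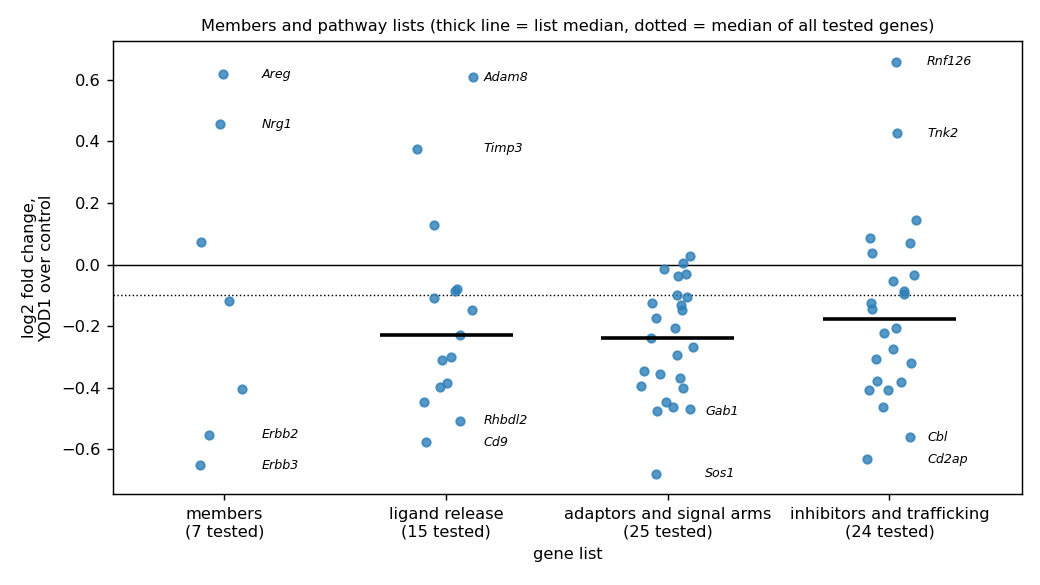
Log2 fold change of YOD1 over control (vertical axis) of each tested member and of each tested gene of the 3 pathway lists (horizontal axis), with list medians as thick lines at -0.23, -0.24 and -0.18 and the median of all tested genes, -0.10, dotted. The lists lie mostly below 0, and the outermost genes carry their names.

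Of the epithelial markers, Cdh16 and Pax8 also lay lower in all 3 YOD1 libraries, beside Erbb2 and Erbb3. Cdh16, kidney cadherin, averaged 53.6 ± 4.33 FPKM with YOD1 and 71.6 ± 2.34 FPKM in controls, and Pax8, a renal lineage factor, 26.8 ± 1.32 and 37.1 ± 3.38 FPKM (SD, n = 3 each, limma adjusted p = 0.127 and 0.12). The keratin Krt18 averaged 681 ± 121 FPKM with YOD1 and 528 ± 53.5 FPKM in controls (SD, n = 3 each, limma adjusted p = 0.259). The part of these in the receptor values was not tested.

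**Figure D5:**
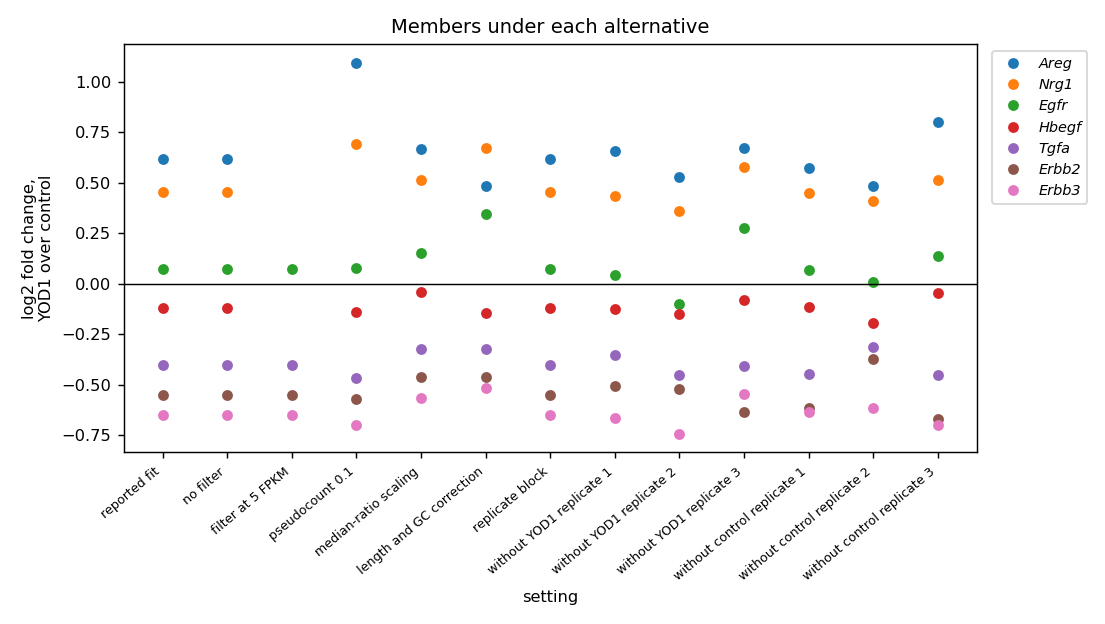
Log2 fold change of YOD1 over control (vertical axis) of the 7 tested members under the reported fit and each of 12 alternatives (horizontal axis), 1 colour per gene. Erbb3, Erbb2 and Tgfa stay below 0 and Areg and Nrg1 (main record) above 0 wherever they were tested, while Egfr is -0.10 without YOD1 replicate 2.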

How the data were processed

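The single deposited table was used, which lists FPKM for each gene in each library, and beside it the authors' ratio of group means, the log2 of that ratio, and their p-values and q-values, per the file headers. Tools named in the submitters' processing notes, without their roles, were StringTie 1.3.0, HISAT2 2.0 and Bowtie 0.12.2, and the build named there was mm8. Neither the authors' test nor the library strand is stated. Unused per-sample columns numbered 0.

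FPKM was transformed to log2(FPKM + 1), which understates the change of low genes. The genes that reached 1 FPKM in 3 or more of the 6 libraries were fitted with limma 3.58.1 in R 4.3.3 (two-sided, variances moderated along an intensity trend, Benjamini-Hochberg over all tested genes). On simulated data the fit recovered 69% of log2 changes of 1 and 98% of log2 changes of 2. The members' changes in the reported fit were smaller than 1, a size that was not simulated. Exact permutation of 3 against 3 cannot give p below 0.1. Alternatives were no filter, 5 FPKM, 0.1 FPKM added, median-ratio scaling, length and GC splines with 4 degrees of freedom (longest transcript in GENCODE M21, 99.2% of tested genes), the replicate block and each library left out. Members and lists were chosen with earlier results of these data known. Besides the members, Yod1 and the markers, the text names every called gene of a pathway list, up to 4 others of largest absolute fold change, and the 3 genes most correlated with the leading receptor and ligand. Some genes that this rule covers are not reported here. Python 3.11.15, pandas 2.3.3 and matplotlib 3.10.9 were used.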

Additional observations from a re-analysis of the deposited data

How the results depend on the processing

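No member was called in limma under any of the 12 alternatives. Of the 7 tested members, all but Egfr kept the sign of their log2 fold change wherever they could be tested, and Egfr ran from -0.10 (without YOD1 replicate 2) to 0.28 when a library was left out. Over the alternatives the adjusted p in limma ran from 0.0722 to 0.319 for Erbb3, 0.1 to 0.39 for Erbb2, 0.172 to 0.457 for Tgfa, 0.0683 to 0.401 for Areg and 0.0638 to 0.437 for Nrg1. Over all genes, 51 were called higher and 4 lower. Counts were 142 and 9 with median-ratio scaling, 14 and 6 with length and GC correction, and 0 and 0 with no filter (1411 and 2016 at an unadjusted p under 0.05 in limma). Leaving out 1 library gave 17 to 145 higher and 1 to 97 lower: 145 and 97 without control 3, 107 and 25 without YOD1 library 3, 30 and 1 without control 1, 17 and 2 without control 2, and 40 and 1 without YOD1 library 1. Among ligand-release genes, 1 was called lower after length and GC correction (Cd9), and 0 to 1 higher when a library was left out (Adam8). Same-numbered libraries had correlations of their deviations of 0.30, -0.12 and -0.11. YOD1 library 1 correlated best with control 1, and YOD1 libraries 2 and 3 with other numbers. Deviations from the mean of only 3 libraries cannot decide whether same-numbered samples were paired, and the labels give only a number. With the replicate block 33 genes were called higher and 8 lower, and 0 members. The cause of these differences was not tested. Depth is unknown, and the levels of Egf, Btc, Ereg and the lesser Nrg1 record are too low for a comparison.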
